A study of Mus musculus with 24 samples.

Results

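Collagen genes and the genes of enzymes that process collagen were followed through gastrocnemius muscle of healthy mice and of mice with muscular dystrophy. The genes were taken by name. Every gene whose symbol had the form of a collagen chain (Col, a number, a, a number) was included, together with the lysyl oxidases Lox and Loxl1 to Loxl4, the prolyl hydroxylase subunits P4ha1 to P4ha3, the lysyl hydroxylases Plod1 to Plod3, the procollagen enhancer Pcolce and the chaperone Serpinh1. The array named a probe for 50 such genes, 37 collagen chains and 13 processing genes, among 16593 named genes. Of these, 24 chains and 10 processing genes had a detected probe, so that 34 of 8945 tested genes belonged to the set.

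Collagens are triple helices of chains in which glycine recurs at regular steps. In the endoplasmic reticulum prolyl and lysyl hydroxylases modify the chains, and the chaperone encoded by Serpinh1 binds the folded helix there. Outside the cell, proteases remove the end pieces of fibrillar procollagens, helped by Pcolce, and lysyl oxidases cross-link the fibrils. In skeletal muscle, fibrils of types I, III and V form the connective tissue around fibres and fascicles, type IV forms the network of the basement membrane, and type VI forms beaded filaments at the outer face of that membrane. Growth of this connective tissue, fibrosis, is a known feature of muscle that lacks dystrophin.

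Total RNA of whole gastrocnemius, a calf muscle, was measured on 24 single-colour Illumina BeadChip arrays, each of 1 male mouse sample labelled as 6-7 weeks of age. The healthy group held 4 arrays of untreated wild-type C57Bl/10ScSnJ mice. The other 20 arrays were of mdx mice, which carry a germline mutation of the dystrophin gene. They formed 4 groups of 5: PBS injection, PBS injection with voluntary wheel running, sActRIIB-Fc injection, and sActRIIB-Fc with running. The labels give 7 weeks of treatment for each of these 4 groups. sActRIIB-Fc joins the ligand-binding part of the activin receptor IIB to an antibody Fc part, so that it traps myostatin, activins and related ligands in solution, and was injected into the abdomen at 5 mg/kg once a week. Wild-type mice are labelled as untreated. In a comparison with them the mdx genotype cannot be told apart from the treatment of that mdx group (PBS or sActRIIB-Fc injection, with or without running). The labels do not say whether the age was that at the start or at the end. An age of 6-7 weeks at the end would put the start of 7 weeks of treatment at or before birth. For the mdx groups it is therefore read here as the age at the start.

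All 8 muscle fibre markers were detected on these arrays, among them Acta1, Ckm and Myh4, with a mean log2 level of 14.45 to 14.68 over the 24 arrays, and none was called in the comparison of PBS-injected mdx with wild type. Wild-type arrays detected 10404 to 10634 probes and mdx arrays 10938 to 11971, so a low transcript was less often detected in the wild-type group. Of 7 transcripts typical of hepatocytes 5 were tested (Apoa1, Apoa2, Ttr, Serpina1a and Ahsg), while Alb and Fgb were not detected on at least 4 arrays. The mean level of the 5 varied between arrays of 1 group, from 4.91 to 11.68 in wild type and from 4.72 to 10.28 among the mdx arrays. Counts without the 4 arrays richest in these 5 transcripts are given beside the main counts. Levels below are log2 of background-corrected, quantile-normalized intensity, listed by replicate number. Changes are differences of group means on that scale with the standard error of limma's model, a gene is called at a Benjamini-Hochberg adjusted p under 0.05 over 8945 genes, and a change of 1 is 2-fold.

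The start regions of 4 chain genes are shown because their transcripts were among those followed in most detail: Col4a1 and Col4a2 form the trimer of type IV collagen, and Col1a2 and Col3a1 encode fibril chains. Each stretch runs from 250 bases before to 50 bases after the transcript start of RefSeq (GRCm38.p6), 300 bases in all, 5′ to 3′ on the strand of the gene, and capitals mark CCAAT, the box bound by the factor NF-Y, or CAGACA, a motif of the SMAD factors that act below activin and TGF-beta receptors, on either strand. The regions are chr8:11312777-11313076 on the minus strand for Col4a1, chr8:11312555-11312854 on the plus strand for Col4a2, chr6:4505368-4505667 on the plus strand for Col1a2 and chr1:45311288-45311587 on the plus strand for Col3a1.
Col4a1: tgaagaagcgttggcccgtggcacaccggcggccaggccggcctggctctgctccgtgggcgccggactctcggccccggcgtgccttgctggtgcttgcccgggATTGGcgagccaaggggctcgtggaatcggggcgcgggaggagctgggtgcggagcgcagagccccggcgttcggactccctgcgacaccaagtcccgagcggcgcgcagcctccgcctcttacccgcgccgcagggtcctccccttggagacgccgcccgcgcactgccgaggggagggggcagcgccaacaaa
Col4a2: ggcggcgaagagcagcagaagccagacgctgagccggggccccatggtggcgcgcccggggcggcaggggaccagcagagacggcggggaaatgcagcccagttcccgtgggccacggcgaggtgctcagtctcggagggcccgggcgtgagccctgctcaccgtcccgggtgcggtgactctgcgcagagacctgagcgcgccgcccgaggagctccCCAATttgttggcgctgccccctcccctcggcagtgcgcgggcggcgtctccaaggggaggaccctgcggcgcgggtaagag
Col1a2: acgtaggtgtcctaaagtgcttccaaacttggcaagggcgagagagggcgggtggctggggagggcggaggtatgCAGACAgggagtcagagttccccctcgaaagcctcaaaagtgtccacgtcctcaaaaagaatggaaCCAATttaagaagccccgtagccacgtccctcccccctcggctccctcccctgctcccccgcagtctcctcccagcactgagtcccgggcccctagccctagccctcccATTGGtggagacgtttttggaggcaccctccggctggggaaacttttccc
Col3a1: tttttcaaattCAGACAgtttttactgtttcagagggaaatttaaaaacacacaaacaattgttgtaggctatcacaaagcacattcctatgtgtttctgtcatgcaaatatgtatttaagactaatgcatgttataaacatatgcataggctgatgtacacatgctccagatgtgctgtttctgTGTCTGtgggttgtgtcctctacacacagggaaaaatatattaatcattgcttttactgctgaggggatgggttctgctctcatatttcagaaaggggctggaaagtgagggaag

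Col4a1 and Col4a2 lie head to head. Their annotated start sites are 21 bases apart, placed so that the first bases of both transcripts overlap on opposite strands. Their windows share 78 bases, and each window holds 1 CCAAT. The Col1a2 window holds 2 CCAAT and 1 CAGACA, the Col3a1 window 2 CAGACA and no CCAAT. Among all 25 tested members with an entry, 11 had CCAAT and 7 had CAGACA in at least 1 window. By window, CCAAT was in 39.3% of their 28 windows and in 37.4% of all 32851 windows of the table, and CAGACA was in 25.0% and 21.0%. Both motifs were thus about as common in these windows as in the whole table.

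Dystrophic muscle was compared with healthy muscle first, with PBS-injected mdx mice against wild type. Of the 34 tested genes 24 were higher in mdx, none was lower, and 10 were not called by limma. The largest changes were in fibril chains, Col3a1 (4.79-fold), Col5a1 (4.29-fold) and Col1a1 (4.28-fold), followed by the type VI chain Col6a2 (3.5-fold) and the oxidase Loxl1 (3.42-fold). Among the chains 17 of 24 rose and among the processing genes 7 of 10. The background of this comparison was high: 37.7% of all 8945 genes were called, 19.3% as higher and 18.5% as lower. On 21 of the 34 genes all 5 mdx arrays lay above all 4 wild-type arrays, as they did for 17.2% of all genes, and 15 rose at least 2-fold, as did 5.71% of all genes. The median change was 0.90 over the 34 genes and -0.05 over all genes.

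The split of all genes into higher and lower depended on the scaling of the arrays, whereas among the 34 genes 1 was called lower under 1 of the 3 scalings. With quantile scaling 1725 genes were higher and 1651 lower, or 51.1% of the calls higher. With equal medians of all probes 2203 were higher and 861 lower (71.9% higher, median of all genes 0.07), and 26 of the 34 genes were higher and 0 lower. With equal medians of the kept probes 1345 were higher and 2881 lower (31.8% higher, median of all genes -0.19), and 23 of the 34 were higher and 1 lower, the cartilage chain Col9a1 (-0.39, adjusted p = 0.0302 in limma). The median of the 34 genes was 1.01 and 0.75 under these 2 scalings. Without the 4 arrays richest in hepatocyte transcripts, 22 of the 34 were called.

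Because a filter on detection can favour genes that are high in 1 group, the 20 members detected on all 24 arrays were also counted apart. Of these, 17 rose and 0 fell, against 18% of the 6547 genes detected on every array that rose. The 3 that were not called were Col7a1, P4ha1 and P4ha2. The plot of changes by role shows the 34 genes in order of function.

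**Figure D1:**
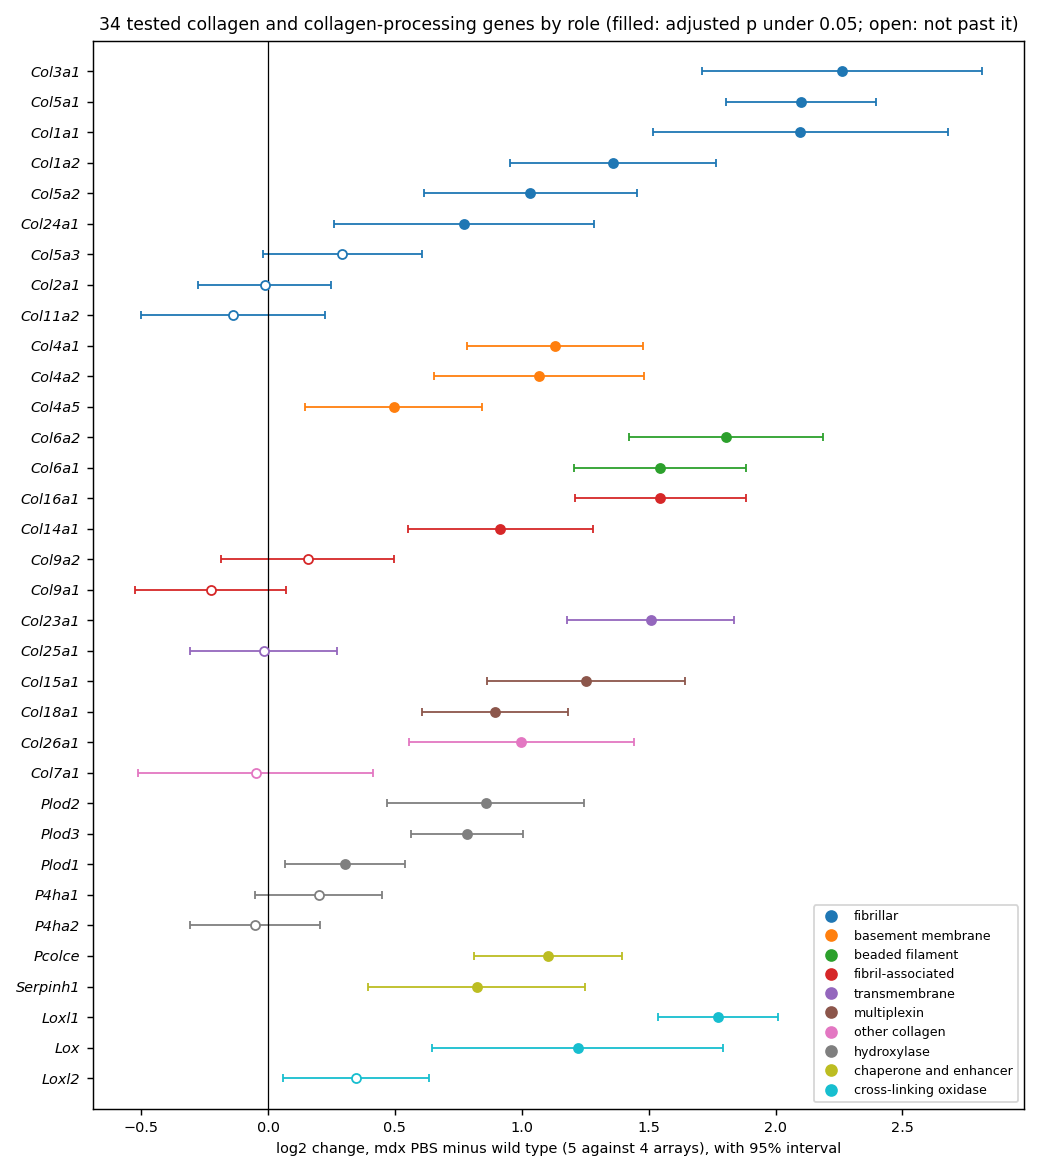
Change of each of the 34 tested genes between PBS-injected mdx (5 arrays) and wild type (4 arrays), as log2 difference with its 95% interval on the x axis, with genes grouped by role and coloured by it. Filled points (24 genes) passed an adjusted p of 0.05 and all lie to the right of 0, and open points (10 genes) did not pass.

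Among the fibrillar collagens 6 of 9 tested chains rose. Col1a1, a chain of type I collagen, the main fibril of tendon and scar, had levels of 7.61, 7.65, 8.17 and 9.11 on the wild-type arrays. On the PBS-injected mdx arrays it had 10.59, 9.89, 9.75, 10.41 and 10.52. Wild-type replicate 4 was the highest of its group and still lay below every mdx array. The change of 2.10 ± 0.28 had an adjusted p of 2.85e-06 in limma. Its partner chain Col1a2 had 6.70, 6.87, 7.53 and 7.73 in wild type. In mdx it had 8.62, 8.41, 8.41, 8.96 and 8.44, again with no overlap, and the change was 1.36 ± 0.20.

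Col3a1, the chain of type III collagen found in fine fibrils, showed the largest change of the set. Its levels were 5.87, 6.84, 7.05 and 6.62 in wild type. In mdx they were 9.24, 8.63, 8.91, 9.17 and 8.32, so that the lowest mdx array stood more than 1 unit above the highest wild-type array. The change was 2.26 ± 0.27 (adjusted p = 5.51e-07), and a second probe of the gene gave 2.13 ± 0.21.

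Type V collagen takes part in starting type I fibrils, and 2 of its 3 chains rose. Col5a1 had 7.97, 8.22, 8.13 and 8.58 in wild type. It had 10.73, 10.23, 10.14, 10.29 and 10.22 in mdx, with replicate 1 apart above the other 4. The change was 2.10 ± 0.14 (adjusted p = 1.11e-10), with the groups far apart. Col5a2 was detected on none of the wild-type arrays, where its levels were 4.58, 4.58, 4.52 and 4.52. It was detected on 4 of 5 mdx arrays, with 6.14, 5.36, 5.54, 5.86 and 5.02. The fitted change was 1.03 ± 0.20, and against the detection limit of the wild-type arrays the gene was at least 1.04-fold higher. Col5a3 had 5.99, 5.41, 5.54 and 5.55 in wild type. In mdx it had 6.22, 5.88, 5.63, 5.98 and 5.85, within reach of the highest wild-type array, and its change of 0.29 ± 0.15 was not called (adjusted p = 0.133). Leaving out wild-type replicate 1 brought it to 0.41 and an adjusted p of 0.0428.

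Col24a1, a fibrillar collagen best known from bone, was higher in mdx by 0.77 ± 0.25 (adjusted p = 0.0169). The call depended on wild-type replicate 2, without which the change was 0.69 and the adjusted p 0.0554. The cartilage chains did not pass the test. Col2a1 of type II was detected on no wild-type array and on 2 mdx arrays (-0.01 ± 0.13, and 0.04 ± 0.14 on its other probe), and Col11a2 of type XI gave -0.14 ± 0.18.

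**Figure D2:**
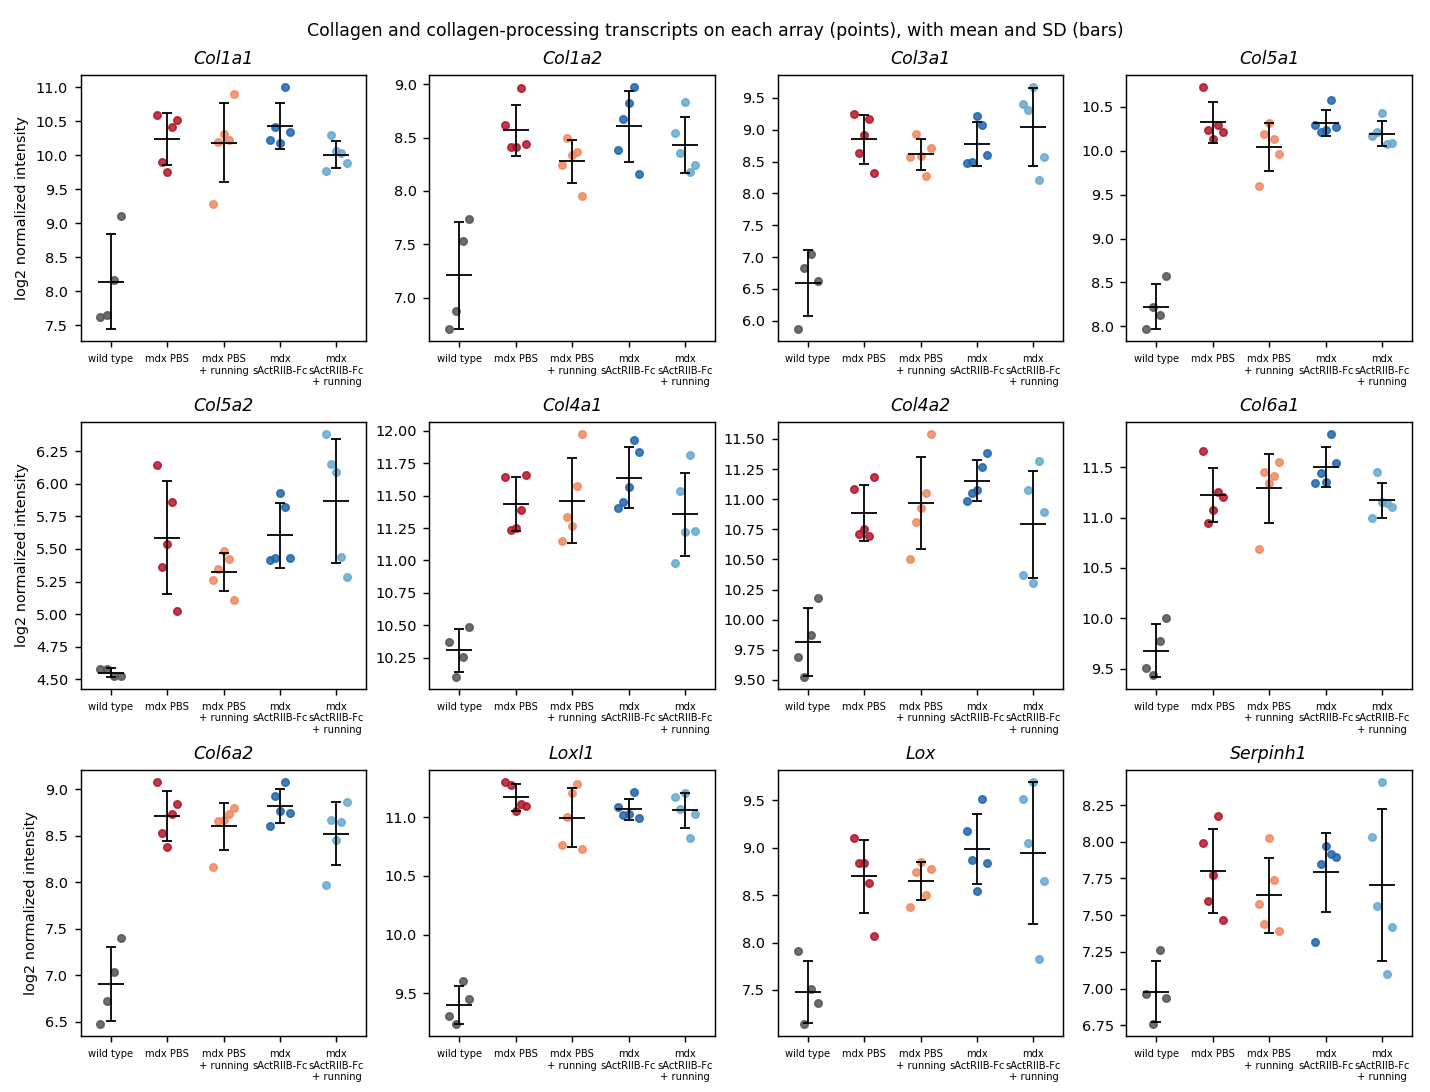
Level of 12 genes (log2 normalized intensity, y axis) on each array, by group (x axis), with the group mean and SD as bars; each panel has its own scale and the axes do not start at 0. In all 12 panels the 4 wild-type points sit below all 5 points of the PBS-injected mdx group.

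Basement membrane collagen was represented by 3 tested chains, all of them higher in mdx. Col4a1, which with Col4a2 forms the trimer found in all basement membranes, had 10.37, 10.10, 10.26 and 10.49 in wild type. In mdx it had 11.64, 11.23, 11.25, 11.39 and 11.66. No wild-type array reached the lowest mdx array, and the change was 1.13 ± 0.17 (adjusted p = 1.13e-05). Col4a2, the neighbour with which Col4a1 shares the start region printed above, had 9.69, 9.53, 9.87 and 10.18 in wild type. In mdx its levels were 11.08, 10.71, 10.75, 10.69 and 11.18. The groups did not overlap here either, and the change of 1.07 ± 0.20 was within 1 standard error of that of Col4a1.

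Col4a5, a chain of another type IV trimer, was low throughout. It was detected on none of the wild-type arrays (4.72, 4.97, 4.65 and 4.72). Only 2 of the mdx arrays detected it (5.91, 5.38, 5.06, 4.84 and 5.12), and mdx replicate 4 lay within the wild-type range. The change of 0.49 ± 0.17 was called (adjusted p = 0.0241), and the group mean did not exceed the detection limit of the wild-type arrays, so no bound on a fold can be given. Leaving out wild-type replicate 1, 3 or 4 or mdx replicate 1 or 2 in turn ended the call, with changes of 0.33 to 0.48 and adjusted p of 0.0501 to 0.0893, and with equal medians of the kept probes it was 0.19 (adjusted p = 0.318). The chains Col4a3, Col4a4 and Col4a6 had a named probe and were not detected.

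Type VI collagen, the beaded filament whose absence causes muscle disease in humans, had 2 tested chains, and both rose. Col6a1 had 9.51, 9.44, 9.77 and 10.01 in wild type. In mdx it had 11.66, 10.94, 11.08, 11.25 and 11.20. The groups did not overlap, the change was 1.54 ± 0.16 (adjusted p = 1.09e-07), and 2 further probes gave 1.56 ± 0.13 and 0.77 ± 0.15. Col6a2 had 6.47, 6.73, 7.04 and 7.40 in wild type. Its mdx levels were 9.08, 8.53, 8.38, 8.73 and 8.85, all well above the highest wild-type array of 7.40. Col6a2 changed by 1.81 ± 0.19 (adjusted p = 6.75e-08), and Col6a6 was not detected.

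Collagens that sit on fibrils, span membranes or line basement membranes gave a mixed picture. Col16a1, a fibril-associated collagen, had 7.38, 7.51, 7.39 and 8.04 in wild type. With 9.46, 8.96, 8.93, 9.16 and 9.13 in mdx it stood apart by 1.55 ± 0.16. Col14a1, which binds the surface of fibrils, rose by 0.92 (SE 0.18) without overlap, whereas the cartilage chains Col9a1 (-0.23 ± 0.14) and Col9a2 (0.16 ± 0.17) were not called. Col23a1, a transmembrane collagen, was detected on every mdx array and on no wild-type array. Its levels were 4.92, 4.82, 4.69 and 5.33 in wild type. Levels of 6.85, 6.28, 6.38, 6.24 and 6.48 in mdx gave a fitted change of 1.51 ± 0.16, and against the detection limit the gene was at least 1.88-fold higher. Col25a1, a transmembrane collagen known from neurons, gave -0.02 ± 0.14 and was not called.

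Both multiplexins, collagens of the basement membrane zone whose end pieces are cut off as free fragments, were higher. Col15a1 rose by 1.25 ± 0.19, and Col18a1, the source of endostatin, by 0.89 ± 0.14. Col26a1 was detected on all 5 mdx arrays and no wild-type array, with a fitted change of 1.00 ± 0.22 and at least 1.23-fold against the detection limit. One undetected wild-type value of 5.44 overlapped the lowest mdx array. Col7a1, the chain of the anchoring fibrils of skin, was detected on every array and did not pass the test (-0.05 ± 0.22, adjusted p = 0.891).

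The processing genes were read in the order in which their products act. Of the 5 hydroxylase genes tested 3 rose. Plod3, which both hydroxylates and glycosylates lysines, rose by 0.78 ± 0.11 with little spread, and Plod2, which hydroxylates lysines in the end regions of fibril chains, by 0.86 ± 0.19 (detected on no wild-type array, at least 1.15-fold higher). Plod1, which acts on lysines within the helix, was called at 0.30 ± 0.11 (adjusted p = 0.0391) although wild-type replicate 1 overlapped the mdx range. That call ended when wild-type replicate 2, 3 or 4 or mdx replicate 1, 3 or 5 was left out, with changes of 0.24 to 0.31 and adjusted p of 0.0534 to 0.116. P4ha1 (0.20 ± 0.12) and P4ha2 (-0.05 ± 0.12), catalytic subunits of prolyl hydroxylase, were detected on all arrays and were not called, and P4ha1 passed with equal medians of all probes (0.46, adjusted p = 0.0123).

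Serpinh1, the collagen chaperone, had 6.96, 6.76, 7.26 and 6.94 in wild type. It had 7.99, 7.60, 7.78, 8.18 and 7.47 in mdx, without overlap, and changed by 0.82 ± 0.21 (adjusted p = 0.00298). Pcolce, the enhancer of procollagen cleavage, rose by 1.10 ± 0.14.

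Of the 3 cross-linking oxidases tested 2 rose. Loxl1, which also acts on elastin, had 9.30, 9.23, 9.60 and 9.45 in wild type. In mdx it had 11.30, 11.28, 11.05, 11.12 and 11.10. Both groups were tight, and the change of 1.77 ± 0.11 had the lowest adjusted p among the 34 genes (4.75e-11). Lox, the founding member of the family, had 7.91, 7.14, 7.51 and 7.36 in wild type. Its mdx levels of 9.11, 8.84, 8.84, 8.63 and 8.07 were more spread out and did not overlap those of wild type, and the change was 1.22 ± 0.28 (adjusted p = 0.00124). Loxl2, detected on all 5 PBS-injected mdx arrays and no wild-type array, fell just short of the threshold (0.35 ± 0.14, adjusted p = 0.0538 in limma). The detection limit was 5.51 to 5.57 on wild-type arrays and 5.24 to 5.42 on these mdx arrays. Wild-type replicate 3, undetected at 5.40, lay above mdx replicates 2, 3 and 4, detected at 5.36, 5.38 and 5.33. Loxl2 passed the threshold without wild-type replicate 3 (0.44, adjusted p = 0.0266) or without mdx replicate 4 (0.38, adjusted p = 0.0495), and with equal medians of all probes (0.40, adjusted p = 0.0337).

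The 16 members with a named probe that was not detected on at least 4 arrays were the fibrillar chains Col11a1 and Col27a1, the type IV chains Col4a3, Col4a4 and Col4a6, the type VI chain Col6a6, the fibril-associated Col9a3 and Col19a1, the transmembrane Col13a1 and Col17a1, Col8a2, Col10a1 of growth plate cartilage, Col28a1, the oxidases Loxl3 and Loxl4, and the hydroxylase subunit P4ha3. Nothing can be said of their direction, since a level under the detection limit was not measured.

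Genes that work with the set were read from 3 further lists. For scale, 19.3% of all 8945 genes were called higher and 18.5% lower in this comparison. Of the folding and processing partners 14 of 23 were tested, and 7 rose and 1 fell. The largest rises were in Bmp1, the protease that removes the end piece of fibrillar procollagens (1.02 ± 0.13), Crtap, part of the prolyl hydroxylation complex (0.95 ± 0.12), Sec24d of the secretory coat (0.79 ± 0.18) and P3h3 (0.79 ± 0.13), and the gene that fell was Colgalt2, a collagen galactosyltransferase (-0.39 ± 0.14). Of 6 collagen receptors tested 2 rose, Itga11, an integrin chain of fibroblasts (0.99 ± 0.13), and Ddr2, a receptor kinase for fibrils (0.60 ± 0.13). The median change of the 6 was 0.25, and so small a count cannot be set apart from the share of all genes. Genes of collagen breakdown moved in the same direction as the chains, with 6 of 9 higher and none lower. They included the collagenases Mmp13 (2.30 ± 0.41) and Mmp14 (2.25 ± 0.14), the lysosomal protease Ctsk (2.08 ± 0.22) and the gelatinase Mmp2 (1.55 ± 0.15).

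Whole muscle was measured, so more cells of a type and more RNA per cell cannot be told apart. The marker counts stand beside 19.3% of all genes called higher and 18.5% lower. Most fibroblast markers moved in the same direction as the collagens. Of 9 tested of 10, 6 were higher in PBS-injected mdx, and the mean level of the 9 was 7.79 to 8.04 on wild-type arrays and 8.43 to 8.72 on PBS-injected mdx arrays. The macrophage markers Adgre1, Mrc1 and Lyz2, 3 tested of 6, were all higher, with a mean level of 6.95 to 7.45 in wild type and 9.41 to 10.30 in mdx, while Itgam was not detected, and Cd68 and Csf1r were not analysed here. None of 6 endothelial markers was called, 1 of 5 mural markers was higher and 2 lower, and of 4 tendon markers 1 was higher and 1 lower, with a mean level of 7.58 to 7.74 in wild type and 7.32 to 7.57 in mdx. Of 3 adipocyte markers Cidec and Lep were lower (-1.09 ± 0.28 and -1.29 ± 0.29), and the mean level of the 3 was 8.06 to 8.84 in wild type and 6.71 to 8.13 in mdx. Mbp, a myelin protein and the Schwann cell marker tested, was lower (-1.36 ± 0.19). Of 2 satellite cell markers tested of 4, Myod1 was higher (0.96 ± 0.20) and Chodl was not called (0.19), while Pax7 and Myf5 were not detected. Among markers of cartilage and bone only Comp was detected (0.11 ± 0.21), while Acan, Bglap, Sp7 and Ibsp were not. The part of these cell types in the collagen changes was not tested.

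The same 4 wild-type arrays were then set against the other mdx groups, to see whether collagen transcripts were raised in mdx mice that ran or received sActRIIB-Fc. They were, in each of the 3 groups. In running mdx mice 24 of the 34 genes were higher than in wild type (17.8% of all genes were), in sActRIIB-Fc mice 25 (19.8%), and in the group with both 23 (19.5%), and none was called lower (16.9%, 19.1% and 19.7% of all genes were). Calls in either direction covered 34.7%, 38.8% and 39.3% of all genes. The arrays of 20, 22 and 19 genes lay wholly above wild type, as did those of 15.1%, 17.4% and 13.4% of all genes. The median change of the 34 genes was 0.74, 0.93 and 0.77, and that of all genes was -0.04, -0.04 and -0.06. At least 2-fold rises were seen in 14, 16 and 14 genes, against 5.1%, 5.7% and 6.1% of all genes. Leaving out the 4 hepatocyte-rich arrays gave counts of 21, 23 and 21.

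Here too the split of all genes depended on the scaling. Of the genes called, 51.3%, 50.9% and 49.7% were higher with quantile scaling, 75.8%, 71.8% and 69.6% with equal medians of all probes, and 32.2%, 31.5% and 33.2% with equal medians of the kept probes. Among the 34 genes 26, 27 and 23 were higher with equal medians of all probes and none lower. With equal medians of the kept probes 21, 23 and 22 were higher, and Col9a1 was lower in the sActRIIB-Fc group and in the group with both. The median of all genes under this scaling was -0.18 in each of the 3 comparisons.

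In all 4 mdx groups 23 genes were called. The 2 others that were called at all were Col4a5, in 3 groups, and Col5a3, in 1, and 9 genes were called in none: Col11a2, Col25a1, Col2a1, Col7a1, Col9a1, Col9a2, Loxl2, P4ha1 and P4ha2. Of these 9, Loxl2, P4ha1 and Col9a1 passed in some group under another setting. Since every comparison used the same wild-type arrays, the lists share their reference and are no independent repeats. The plot of changes against wild type shows the 4 values of each gene side by side.

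**Figure D3:**
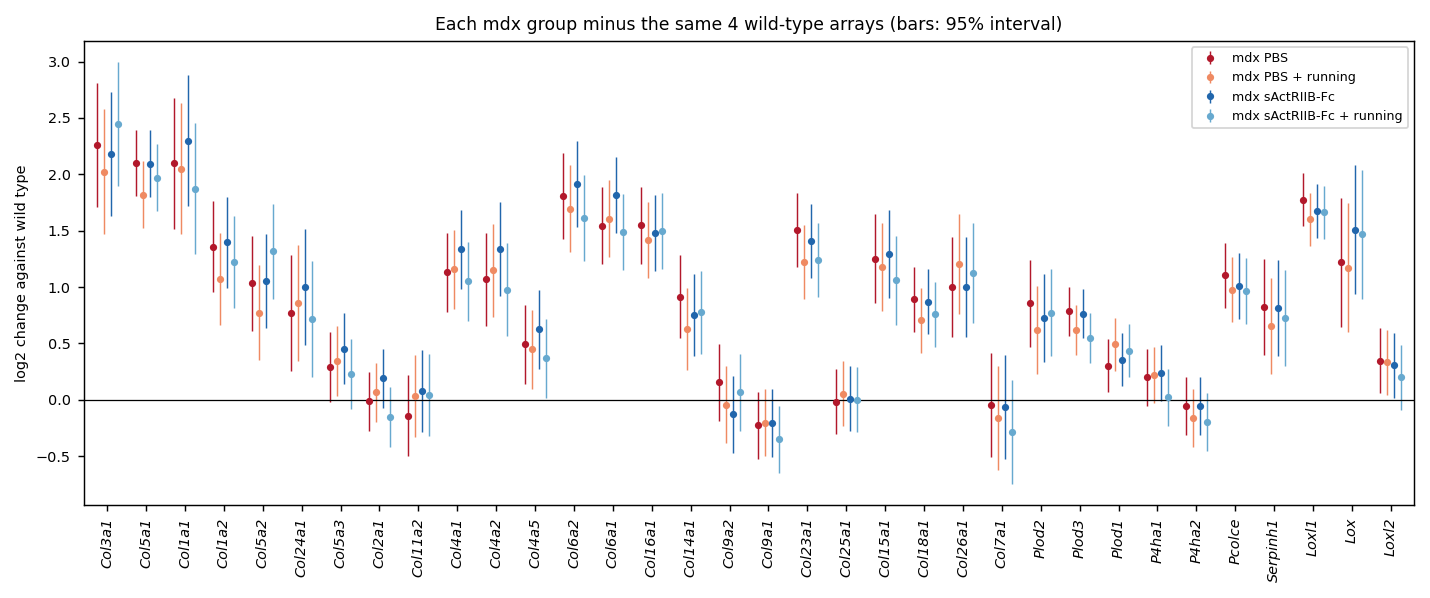
Change of each gene in the 4 mdx groups against the same 4 wild-type arrays, as log2 difference (y axis) with 95% interval (bars), by gene (x axis, grouped by role). The intervals of the 4 groups overlap one another in every gene, with Col3a1, Col5a1 and Col1a1 highest on the left and Loxl1 near 1.7 on the right.

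Type I and III chains had these levels in the treated groups. Running mdx mice had 9.28, 10.20, 10.31, 10.22 and 10.90 for Col1a1. With sActRIIB-Fc alone the gene had 10.22, 10.41, 10.18, 11.01 and 10.34. With both, the levels were 9.76, 10.30, 10.06, 10.03 and 9.89, a narrower range than in the other 3 mdx groups. Every one of these arrays lay above the highest wild-type array, 9.11, and the changes were 2.05 ± 0.28, 2.30 ± 0.28 and 1.87 ± 0.28. Col1a2 had 8.24, 8.49, 8.34, 8.37 and 7.95 with running. It had 8.38, 8.67, 8.83, 8.98 and 8.16 with sActRIIB-Fc, and 8.54, 8.36, 8.83, 8.17 and 8.25 with both. The lowest of these, 7.95, was above the highest wild-type value, and the changes were 1.07 ± 0.20, 1.40 ± 0.20 and 1.22 ± 0.20. For Col3a1 running mice had 8.58, 8.93, 8.58, 8.27 and 8.72. Those given sActRIIB-Fc had 8.48, 8.50, 9.22, 9.07 and 8.60, and those given both had 9.41, 9.31, 9.68, 8.22 and 8.58. The group with both was the most spread, with replicates 1 to 3 high and replicates 4 and 5 low. On the probe used here its change of 2.44 ± 0.27 was the largest among the 34 genes in any of the 4 comparisons (2.02 ± 0.27 with running and 2.18 ± 0.27 with sActRIIB-Fc). The second probe of Col3a1 differed from this one on the effect of running, as given below.

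Among the type V chains, Col5a1 and Col5a2 were called in all 3 treated groups and Col5a3 in 1. Col5a1 had 9.60, 10.19, 10.32, 10.14 and 9.97 with running. Its levels were 10.30, 10.21, 10.23, 10.58 and 10.27 with sActRIIB-Fc and 10.17, 10.21, 10.43, 10.08 and 10.09 with both. All were above the wild-type maximum of 8.58, with changes of 1.82 ± 0.14, 2.09 ± 0.14 and 1.97 ± 0.14. Col5a2 had 5.26, 5.35, 5.49, 5.42 and 5.11 with running. It had 5.41, 5.43, 5.93, 5.82 and 5.43 with sActRIIB-Fc and 6.38, 6.15, 6.09, 5.44 and 5.28 with both. Among these 15 arrays the 3 highest values were in the group with both, and the fitted changes were 0.77 ± 0.20, 1.05 ± 0.20 and 1.32 ± 0.20. With equal medians of the kept probes the change in running mice was 0.43 and no longer called (adjusted p = 0.0863). Against the detection limit of the wild-type arrays Col5a2 was at least 1.05-fold and 1.26-fold higher with sActRIIB-Fc and with both. With running its mean of 5.32 lay below that limit, so no bound on the fold can be given. Col5a3 had 6.07, 5.73, 6.01, 6.00 and 6.02 with running. It had 6.29, 5.77, 5.85, 6.09 and 6.37 with sActRIIB-Fc and 5.76, 5.91, 5.95, 6.19 and 5.44 with both. Only the sActRIIB-Fc group passed (0.45 ± 0.15, adjusted p = 0.0207), and its difference from the PBS group was 0.16 ± 0.14 and not called. Without wild-type replicate 2 or 3 or sActRIIB-Fc replicate 1 or 5, that call ended, with changes of 0.38 to 0.43 and adjusted p of 0.0552 to 0.0762. In running mice Col5a3 passed without wild-type replicate 1 (0.47, adjusted p = 0.025).

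The basement membrane pair kept levels above wild type. Col4a1 had 11.15, 11.34, 11.26, 11.58 and 11.98 with running. It had 11.41, 11.45, 11.57, 11.93 and 11.84 with sActRIIB-Fc and 10.98, 11.54, 11.22, 11.81 and 11.23 with both. The lowest array, 10.98, was above the wild-type maximum of 10.49, and the changes were 1.16 ± 0.17, 1.33 ± 0.17 and 1.05 ± 0.17. Col4a2 had 10.50, 10.81, 10.93, 11.05 and 11.54 with running. It had 10.98, 11.05, 11.08, 11.27 and 11.39 with sActRIIB-Fc and 10.37, 11.08, 10.30, 11.32 and 10.89 with both. Replicates 1 and 3 of the group with both came closest to the wild-type maximum of 10.18, and the changes were 1.15 ± 0.20, 1.34 ± 0.20 and 0.97 ± 0.20. Col4a5 had 5.02, 5.41, 5.33, 4.88 and 5.42 with running. It had 5.56, 5.42, 5.48, 5.42 and 5.08 with sActRIIB-Fc and 5.37, 5.33, 5.16, 5.02 and 4.80 with both. The sActRIIB-Fc arrays were all above wild type (0.63 ± 0.17, adjusted p = 0.00513), while the group with both overlapped it and did not pass (0.37 ± 0.17, adjusted p = 0.0872). With equal medians of the kept probes the sActRIIB-Fc change was 0.32 and no longer called (adjusted p = 0.0942). The group with both passed without its replicate 5 (0.45, adjusted p = 0.0425) and with array quality weights (0.46, adjusted p = 0.0486). In running mice the call of Col4a5 at 0.45 ± 0.17 (adjusted p = 0.0432) ended with the removal of wild-type replicate 1, 3 or 4 or running replicate 2, 3 or 5, at 0.40 to 0.43 and adjusted p of 0.0832 to 0.107, and with equal medians of the kept probes (0.14, adjusted p = 0.48).

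Type VI chains were again well above wild type. Col6a1 had 10.69, 11.45, 11.34, 11.41 and 11.55 with running. It had 11.34, 11.44, 11.35, 11.83 and 11.54 with sActRIIB-Fc and 10.99, 11.45, 11.16, 11.14 and 11.10 with both. Running replicate 1 was the lowest of these arrays and still above the wild-type maximum of 10.01, and the changes were 1.61 ± 0.16, 1.82 ± 0.16 and 1.49 ± 0.16. Col6a2 had 8.16, 8.66, 8.67, 8.73 and 8.80 with running. It had 8.61, 8.92, 8.77, 9.08 and 8.74 with sActRIIB-Fc and 7.97, 8.67, 8.46, 8.65 and 8.87 with both. None reached down to the wild-type maximum of 7.40, and the changes were 1.70 ± 0.19, 1.92 ± 0.19 and 1.61 ± 0.19.

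Other members with large changes were Col16a1, Col23a1 and the oxidases. Col16a1 had 8.65, 9.17, 9.18, 9.22 and 8.75 with running, all above wild type. It had 8.76, 9.03, 9.23, 9.44 and 8.83 with sActRIIB-Fc and 9.26, 9.13, 9.24, 8.91 and 8.84 with both, and changes of 1.42 ± 0.16, 1.48 ± 0.16 and 1.50 ± 0.16. Col23a1, detected on all mdx arrays, had 5.89, 6.00, 6.27, 6.39 and 6.26 with running. It had 5.91, 6.58, 6.27, 6.42 and 6.58 with sActRIIB-Fc and 6.08, 6.35, 5.83, 6.37 and 6.24 with both, and was at least 1.54-fold, 1.76-fold and 1.56-fold above the wild-type detection limit. Loxl1 had 10.77, 11.00, 11.21, 11.28 and 10.73 with running. It had 11.09, 11.02, 11.03, 11.22 and 10.99 with sActRIIB-Fc and 11.17, 11.07, 11.21, 10.83 and 11.03 with both. Its changes of 1.60 ± 0.11, 1.67 ± 0.11 and 1.66 ± 0.11 were the same to within their errors. Lox had 8.37, 8.74, 8.85, 8.51 and 8.78 with running. It had 9.17, 8.87, 8.54, 9.52 and 8.84 with sActRIIB-Fc and 9.52, 9.05, 9.70, 7.82 and 8.65 with both, where replicate 4 fell below the wild-type maximum of 7.91. The changes were 1.17 ± 0.28, 1.51 ± 0.28 and 1.47 ± 0.28.

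Among the remaining members, Col26a1 was at least 1.43-fold, 1.24-fold and 1.35-fold above the wild-type detection limit in the running, sActRIIB-Fc and combined groups. Plod2 was at least 1.06-fold and 1.09-fold above it with sActRIIB-Fc and with both. Col15a1 was higher by 1.18, 1.29 and 1.06, and Pcolce by 0.98, 1.01 and 0.96. Smaller rises, from 0.36 for Plod1 with sActRIIB-Fc to 1.00 for Col24a1 with sActRIIB-Fc, were called in all 3 groups for Col14a1, Col18a1, Col24a1, Plod1, Plod2, Plod3 and Serpinh1. With equal medians of the kept probes Plod2 was no longer called with running (0.34, adjusted p = 0.144) or sActRIIB-Fc (0.44, adjusted p = 0.052). Some of these rested on 1 array: the call of Serpinh1 in running mice ended with the removal of wild-type replicate 2 (0.58, adjusted p = 0.0545) or running replicate 3 (0.56, adjusted p = 0.0507), and that of Plod1 in sActRIIB-Fc mice with the removal of wild-type replicate 2 (0.31, adjusted p = 0.0584). For Col24a1 in the group with both it ended with the removal of wild-type replicate 2 or 3 or replicate 5 of that group, at 0.63 to 0.67 and adjusted p of 0.0573 to 0.0739.

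Loxl2 and Col9a1 changed their call the other way. Loxl2 passed in running mice without wild-type replicate 3 (0.43, adjusted p = 0.0329) or running replicate 5 (0.42, adjusted p = 0.0213), and in sActRIIB-Fc mice without wild-type replicate 3 (0.40, adjusted p = 0.0422) or sActRIIB-Fc replicate 5 (0.37, adjusted p = 0.0477). Col9a1 was not called lower in the group with both (-0.35 ± 0.14, adjusted p = 0.0558). It passed as lower there with equal medians of the kept probes (-0.48, adjusted p = 0.00826), and without wild-type replicate 3 (-0.46, adjusted p = 0.019) or replicate 3 (-0.39, adjusted p = 0.0474) or 5 (-0.40, adjusted p = 0.0377) of that group. Under the same scaling it was also called lower with sActRIIB-Fc (-0.37, adjusted p = 0.0351). Col9a1 was the only one of the 34 genes that any leave-out or other setting called lower.

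Partner lists moved in the treated groups much as they did with PBS. In the running, sActRIIB-Fc and combined groups 17.8%, 19.8% and 19.5% of all genes were higher and 16.9%, 19.1% and 19.7% lower. Breakdown genes were higher in 6 of 9 in each of the 3 groups, with medians of 1.00, 1.14 and 1.13. Folding and processing partners were higher in 5, 7 and 7 of 14, and receptors in 2, 2 and 3 of 6, with none lower. Fibroblast markers were higher in 7, 7 and 6 of 9 and lower in 0, 0 and 1, with mean levels of 8.56 to 8.61, 8.47 to 8.74 and 8.41 to 8.79. All 3 macrophage markers were higher in each group, with mean levels of 9.47 to 9.93, 9.62 to 10.25 and 8.89 to 10.95, and the part of either cell type was not tested.

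The effect of running and of sActRIIB-Fc within mdx mice was tested next, which is the question the study's design puts to the 20 mdx arrays. No collagen or processing gene was called by limma in running, sActRIIB-Fc or combined mice against PBS-injected mdx, and almost no gene was: 0.0112% of 8945 genes with running (1 gene, Aqp4, an aquaporin, higher) and 0% with sActRIIB-Fc or both. At an unadjusted p under 0.05, 1, 0 and 1 of the 34 genes passed, beside 297, 285 and 523 of all genes. The 34 differences lay between -0.29 and 0.21 with running, -0.29 and 0.29 with sActRIIB-Fc, and -0.27 and 0.28 with both. A missed threshold does not show that the groups are alike, and the intervals say how large a difference could have been missed. With running the 95% intervals ran from -0.76 (Col3a1) to 0.63 (Col26a1), with sActRIIB-Fc from -0.61 (Col9a2) to 0.83 (Lox), and with both from -0.77 (Col1a1) to 0.79 (Lox). In each of the 3 comparisons all 34 intervals thus lay within 1 log2 unit of 0, or a 2-fold change. Differences near the detection limit are compressed on this scale, so for members there the intervals can understate the change that was missed. Col25a1, for example, was detected on 3, 1, 1 and 1 of 5 arrays in the PBS, running, sActRIIB-Fc and combined groups.

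**Figure D4:**
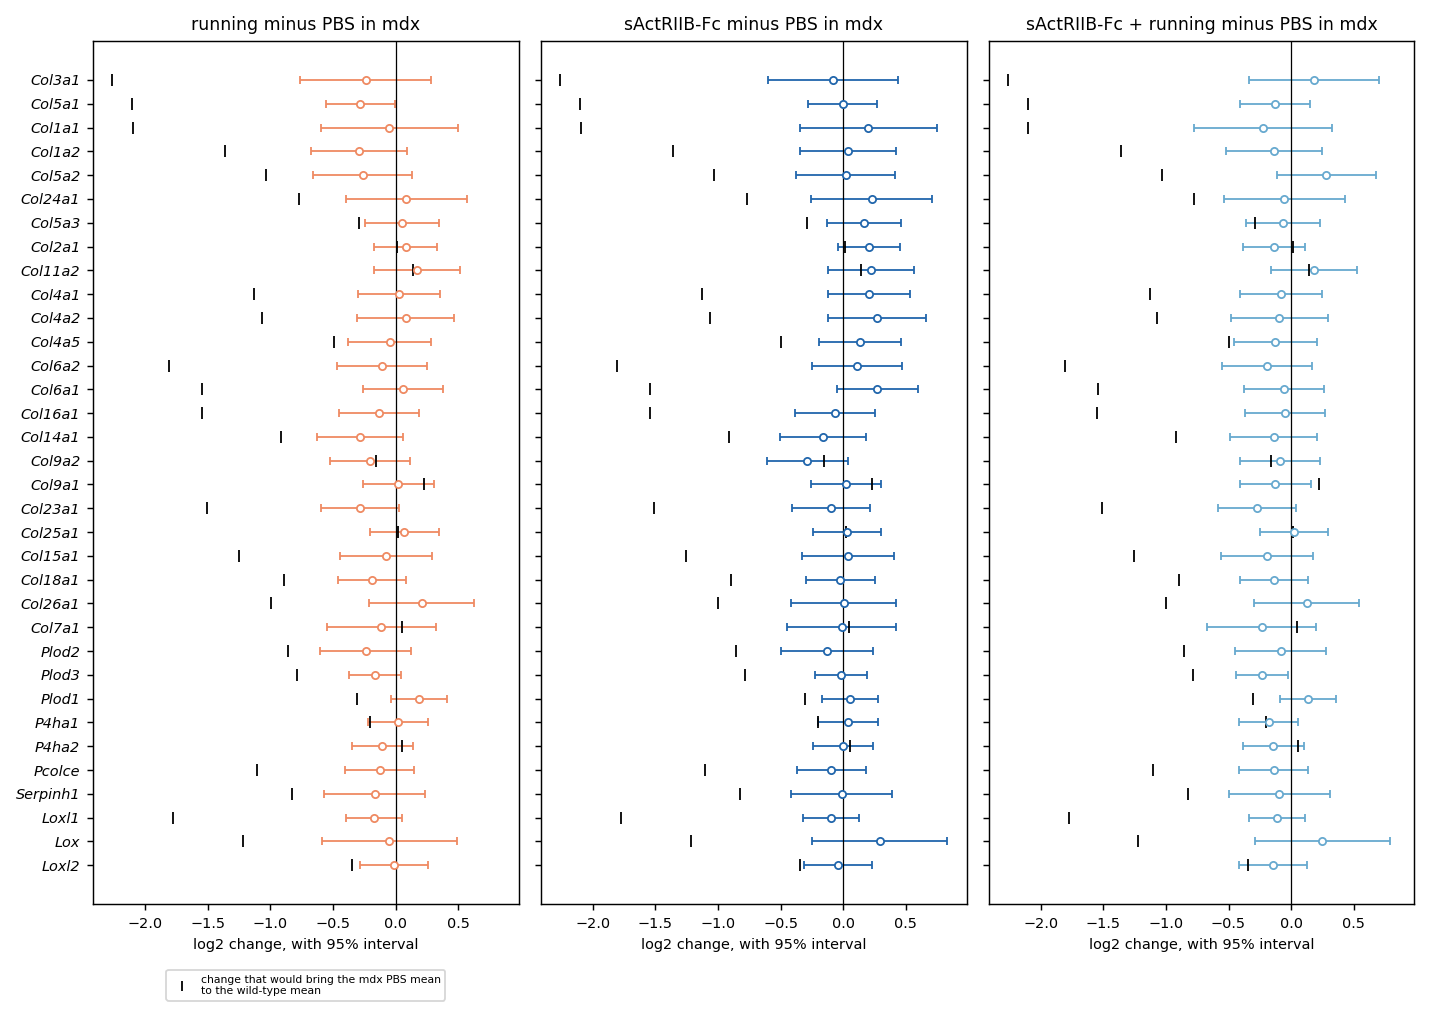
Difference from PBS-injected mdx (5 arrays a group) with 95% interval, on the log2 scale (x axis), for running, sActRIIB-Fc and both, by gene (y axis, grouped by role). All points are open because none passed an adjusted p of 0.05, and black ticks mark the difference that would bring the PBS mean to the wild-type mean, which for the largest changes (Col3a1, Col5a1, Col1a1) lies near -2.

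Differences were negative in 22 of the 34 genes with running, 15 with sActRIIB-Fc and 27 with both. They were positive in 12, 19 and 7 of the 34 genes, and in 49.4%, 50.5% and 48.9% of all genes. The 3 comparisons share the PBS arrays, and PBS replicate 1 was the highest of its group in 19 of the 34 genes, so these counts of signs hang on the same 5 arrays. With running the members with the lowest p were Col5a1 (-0.28 ± 0.13), Col23a1 (-0.28 ± 0.15), Plod1 (0.19 ± 0.11), Col14a1 (-0.29 ± 0.17) and Plod3 (-0.17 ± 0.10). The lowest unadjusted p in limma was 0.0484 for Col5a1, with an adjusted p of 0.997. With sActRIIB-Fc they were Col9a2 (-0.29 ± 0.16), Col6a1 (0.27 ± 0.15), Col2a1 (0.20 ± 0.12), Col4a2 (0.27 ± 0.19) and Col11a2 (0.22 ± 0.17), each with an adjusted p of 0.999. Other probes had the opposite sign for Col6a1 (-0.05 and -0.02) and Col2a1 (-0.03). With both they were Plod3 (-0.24 ± 0.10, adjusted p = 0.826), Col23a1 (-0.27 ± 0.15), P4ha1 (-0.18 ± 0.11), Col5a2 (0.28 ± 0.19) and Plod1 (0.13 ± 0.11).

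For the type I chains, the transcripts most often used to read fibrosis, the intervals were close in the 3 comparisons. Col1a1 differed from PBS by -0.05 ± 0.27 with running, 0.20 ± 0.27 with sActRIIB-Fc and -0.22 ± 0.27 with both, with 95% intervals of -0.60 to 0.50, -0.35 to 0.75 and -0.77 to 0.32. Col1a2 differed by -0.29 ± 0.19, 0.04 ± 0.19 and -0.14 ± 0.19, with intervals of -0.67 to 0.09, -0.35 to 0.42 and -0.52 to 0.24. All 6 intervals included 0.

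Averaging over the other factor set 10 arrays against 10 and narrowed the intervals. For running, with and without sActRIIB-Fc, no member was called (0.0112% of all genes, again Aqp4). At an unadjusted p under 0.05 in limma, 3 of 34 passed beside 599 of all genes. Of the 34 genes 28 were lower in runners and 6 higher, and 46.9% of all genes were higher. Many collagens varied together between arrays, so the 34 signs are not independent. The lowest p were those of Plod3 (-0.19 ± 0.07, adjusted p = 0.624 in limma), Col23a1 (-0.23 ± 0.11), Col5a1 (-0.20 ± 0.10), Col1a2 (-0.23 ± 0.13) and Plod1 (0.13 ± 0.08). On the second probe of Col3a1, detected on 19 arrays, runners were lower by 0.44 ± 0.14 and on the probe used here by 0.01 ± 0.18, so the 2 probes of this gene disagree. For sActRIIB-Fc, with and without running, no member and 0% of genes were called. At an unadjusted p under 0.05 in limma, 1 of 34 passed beside 282 of all genes. Of the 34 genes 18 were higher, as were 49.7% of all genes. The lowest p were those of Col5a2 (0.28 ± 0.14, adjusted p = 0.997), Lox (0.29 ± 0.18), P4ha1 (-0.08 ± 0.08), Col11a2 (0.12 ± 0.12) and Col3a1 (0.17 ± 0.18). In these averaged comparisons 32 and 31 of the 34 intervals lay within 0.5 units of 0, with the same limit for members near the detection limit.

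Whether running changed the effect of sActRIIB-Fc was tested as an interaction. No member and 0% of genes were called, and 1 of 34 had an unadjusted p under 0.05 beside 356 of all genes. The lowest p were those of Col2a1 (-0.42 ± 0.17, adjusted p = 0.926 in limma), Col5a2 (0.52 ± 0.27), Col9a2 (0.40 ± 0.22), Col6a1 (-0.39 ± 0.22) and Col4a2 (-0.44 ± 0.27). Col2a1 and Col6a1 had the opposite sign on their other probes (0.14, and 0.03 and 0.17). The interaction was the least precise comparison, with intervals from -1.15 (Col1a1) to 1.24 (Col3a1), and 30 of 34 within 1 unit of 0. None of the genes on the partner, receptor and breakdown lists was called in any of these 6 comparisons.

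Variation between arrays of 1 group often ran through many collagens at once. PBS replicate 1 was the highest of its group in 19 of the 34 genes, whereas it was highest in 22.3% of all genes. Wild-type replicate 4 was highest in 17 of 34 (32.2% of all genes), and it held the wild-type maximum of Col1a1, Col1a2, Col5a1, Col4a1, Col4a2, Col6a1 and Col6a2. At the low end, sActRIIB-Fc replicate 1 was lowest in 16 of 34 genes (18.9% of all genes). The median SD over the 34 genes was 0.26 in wild type and 0.22 to 0.24 in the mdx groups. The widest spreads were those of Col1a1 in wild type (SD 0.70), Col24a1 in running mice (0.63) and Lox in the group with both (0.75).

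**Figure D5:**
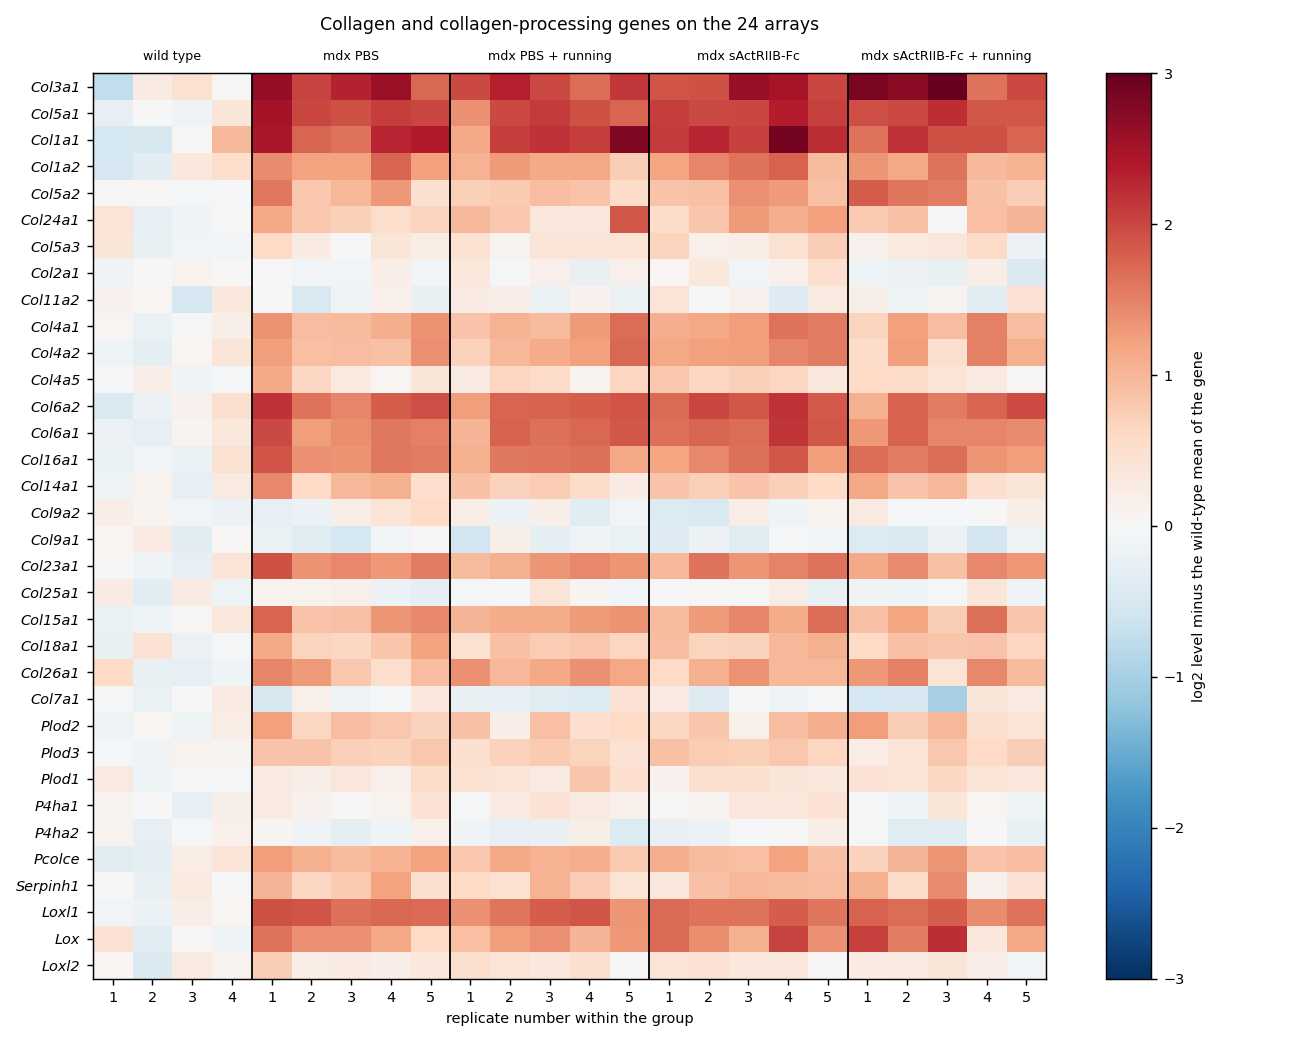
Level of each gene (rows, grouped by role) on each of the 24 arrays (columns, by group and replicate number), as log2 difference from the gene's wild-type mean, from blue (lower) to red (higher). The 20 mdx columns are red from Col3a1 to Col5a2 and in Col4a1, Col6a2, Col6a1, Col16a1 and Loxl1, while Col2a1, Col9a1, Col25a1 and P4ha2 stay pale in all groups.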

How the data were processed

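Expression was measured on 24 arrays of whole gastrocnemius muscle. The deposited table held raw intensity values for 25697 probes, and per the file headers each came with a detection p-value against negative controls. A second deposited matrix held log2 values that equal the quantile-normalized raw signal without background correction (largest difference 0.005). The software used for either is not given in the sources used here. Per the labels' protocols, biotinylated cRNA was made from DNase-treated RNA of a Trizol extraction.

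From the intensities, limma 3.58.1 in R 4.3.3 corrected background with normexp (control spread inferred from the detection p-values, offset 16), followed by quantile normalization and log2. A probe was kept at a detection p under 0.05 on at least 4 arrays (12623 probes, 11919 of them named). Probe names came from the platform annotation: 23978 probes had 1 symbol, 1719 none and 0 several, and all 50 members matched a RefSeq gene. The brightest probe stood for a gene, giving 8945 genes. One linear model over the 24 arrays gave moderated, two-sided tests, adjusted by Benjamini-Hochberg at 0.05. A gene detected on no wild-type array is also given as "at least N-fold" against the detection limit of those arrays. The number of arrays limits the precision. Nothing says that arrays of a group came from separate animals, so p-values measure the spread between samples.

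Groups came from the labels, and no column belonged to other samples. The labels do not say that a replicate number marks a shared litter, batch or day, so the numbers were not used as pairs. Same-numbered arrays did deviate together more than others, and counts with a replicate block are given below. No 2 arrays were alike. Members, gene lists and markers were chosen with earlier results of these data known. Values on every array are given for chains of types I, III, IV, V and VI and for the 8 largest called changes of a comparison, and the 5 lowest p where none was called. Serpinh1 was added to these after its values were seen. Scripts were tested on simulated data. Alternatives to the background offset, scaling, detection filter, probe choice, model, weights, covariates and arrays used were run. Proteins were not analysed here.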

Additional observations from a re-analysis of the deposited data

Results flagged for a closer look

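In 12 of 170 sets of values (34 genes in 5 groups) 1 array stood apart from the others of its group by Dixon's criterion at the 95% level, which chance alone would give in about 1 of 20 sets.

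PBS-injected mdx replicate 1 was high in the type V chain Col5a1, at 10.73 against 10.14 to 10.29 on the other 4 arrays, and in the oxidase Loxl2, at 5.86 against 5.33 to 5.44. In the running group, replicate 1 was low in both type VI chains, at 10.69 against 11.34 to 11.55 for Col6a1 and at 8.16 against 8.66 to 8.80 for Col6a2. Running replicate 2 was low in Col5a3 (5.73 against 6.00 to 6.07) and replicate 5 was high in the skin chain Col7a1 (8.34 against 7.50 to 7.67).

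In the sActRIIB-Fc group, replicate 4 was high in 2 fibril chains, Col1a1 at 11.01 against 10.18 to 10.41 and Col5a1 at 10.58 against 10.21 to 10.30. Replicate 1 of that group was low in the chaperone Serpinh1 (7.32 against 7.85 to 7.97). With both treatments, replicate 3 was low in Col24a1 (5.61 against 6.40 to 6.64) and replicate 4 was high in Col25a1 (5.60 against 5.11 to 5.20). Wild-type replicate 1 was high in Col26a1 (5.44 against 4.59 to 4.72), a gene that none of the wild-type arrays detected.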

How the results depend on the processing

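Counts of called members, and of genes called against wild type in either direction or as higher, stayed within 1.5 times the reported value, and no change of a called member, or of the 5 members with the lowest p in each comparison within mdx, turned its sign, under 14 alternative settings and leaving out each array in turn. Single further probes of Col6a1 and Col2a1, given above, did have the other sign. Of the settings 3 were added after the data were seen (2 on which arrays or genes enter, 1 on scaling). Leaving out 1 array gave 22 to 25, 22 to 24, 23 to 25 and 22 to 24 called members for PBS, running, sActRIIB-Fc and combined mdx against wild type, and 0 in the comparisons within mdx. The other settings gave 17 to 26, 17 to 26, 17 to 27 and 17 to 25. The lowest, 17, came from testing only genes detected on all 24 arrays, which left 20 members. With a replicate block, 24, 25, 26 and 25 members were called, 23, 24, 25 and 23 of them shared with the fit without it, and 0 within mdx. The block added Loxl2 in the first 3 comparisons (adjusted p = 0.0115, 0.0147 and 0.0209) and Col4a5 (0.41, adjusted p = 0.0364) and a lower Col9a1 (-0.39, adjusted p = 0.0247) in the combined group, and ended Plod1 with PBS (0.30, adjusted p = 0.0585). Deviations from group means correlated with a median r of 0.12 between same-numbered arrays (-0.44 to 0.65, over 0.1 in 25 of 46 pairs) and -0.05 between others (over 0.1 in 44 of 184). An array correlated best with its own number in 36 of 92 comparisons with the 4 or 5 arrays of another group. Replicate 1 had the highest raw median signal in 5 of 5 groups. Same-numbered arrays thus deviated together more than others did, and what they share is not given in the labels and was not tested. Over all genes the calls against wild type ranged from 2418 to 4345. Genes called lower were 1651, 1513, 1706 and 1766. They were 861, 691, 914 and 929 with equal medians of all probes and 2881, 2656, 2977 and 2792 with equal medians of the kept probes, and 1140 for the combined group when only the compared groups were fitted. Within mdx, running gave 1 gene over all genes and 0 with only the compared groups. The combination gave 0, 8 with array quality weights and 0 to 4 leaving out 1 array (2 without its replicate 3, 4 without its replicate 4). Running averaged over injections gave 1, with 0 to 3 under the other settings (0 with equal medians of all probes or without the 4 hepatocyte-rich arrays, 3 with the raw median as a covariate, 2 with the authors' matrix, an offset of 50, no filter, the stricter filter, weights or only genes detected on all arrays) and 1 to 2 leaving out 1 array. Averaged sActRIIB-Fc gave 0, with 1 under the replicate block, weights or either covariate, and 0 to 1 leaving out 1 array. The calls that were lost under some setting belonged to Col4a5, Plod1, Col24a1, Serpinh1, Col5a3, Plod2 and Col5a2, and the cause was not tested. Slide as a block was not run, because the file headers name no slide. Low signal limits Col4a5, Loxl2, Col25a1 and Col2a1, which no wild-type array detected and for which no bound on the fold could be given. The same holds for Col5a2 and Plod2 in running mice.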
